A study of Mus musculus with 8 samples.

Results

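The mitotic genes of the G2 and M phases described here are 41 genes for cyclins and kinases of mitotic entry, the kinetochore, the spindle, the spindle checkpoint and cytokinesis. They were followed through 4 bone marrow populations of the mouse, all progenitors of dendritic cells sorted by flow cytometry, which were profiled on Affymetrix gene arrays at 2 arrays each. A gene was taken as measured where a probe set of the array carried its symbol alone, and 40 of the 41 were, out of 19938 genes. The exception was Ccnb1, the cyclin B1 gene, which was not analysed here. CDP stands for common dendritic cell progenitor, and pre-CD8 is a name used for cells on the way to the CD8+ conventional dendritic cell (cDC1). Each was divided by fluorescence of a green reporter driven by the Id2 gene, which encodes an inhibitor of helix-loop-helix transcription factors. The labels call the CDP groups Id2-GFP- CDP and Id2-GFP+ CDP and name the pre-CD8 groups in the same way; below, GFP- or GFP+ stands before the stage. All samples came from mice described as heterozygous for a reporter; no treatment, other allele, age or sort gate is stated in the sources used here. That reporter is Id2-IRES-GFP in every title and source; in the genotype field it is so for the 2 GFP- CDP samples, and Zbtb46-GFP is given for the other 6.

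Mitosis is started by Cdk1 bound to its cyclins and by the Polo and Aurora kinases. Kinetochores then attach chromosomes to the spindle, a checkpoint delays the separation of sister chromatids until all are attached, and the anaphase-promoting complex ends the phase by marking cyclin B and securin for destruction. Transcripts of these genes accumulate late in the cell cycle, so bulk RNA of a population holds more of them when more of its cells are cycling through G2 and M. In bulk samples, fewer cells of a kind and less RNA per cell cannot be told apart. Progenitors of dendritic cells are known to divide in the marrow before they leave it.

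The mitotic genes were lowest in GFP- pre-CD8 cells. For all 40 measured genes, both GFP- pre-CD8 arrays lay below the other 6 arrays, which was true of 8.1% of all genes. Set against each gene's mean over the 8 arrays, the median of the 40 genes on the log2 scale was -0.82 and -1.32 on the GFP- pre-CD8 arrays. It was 0.24 and 0.02 in GFP- CDP, 0.25 and 0.68 in GFP+ CDP, and 0.20 and 0.72 in GFP+ pre-CD8. The medians of all genes lay between -0.06 and 0.06 on these arrays. The reporter-positive CDP and pre-CD8 arrays overlapped in these medians. GFP- CDP replicate 1 lay within their range and replicate 2 below it.

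**Figure D1:**
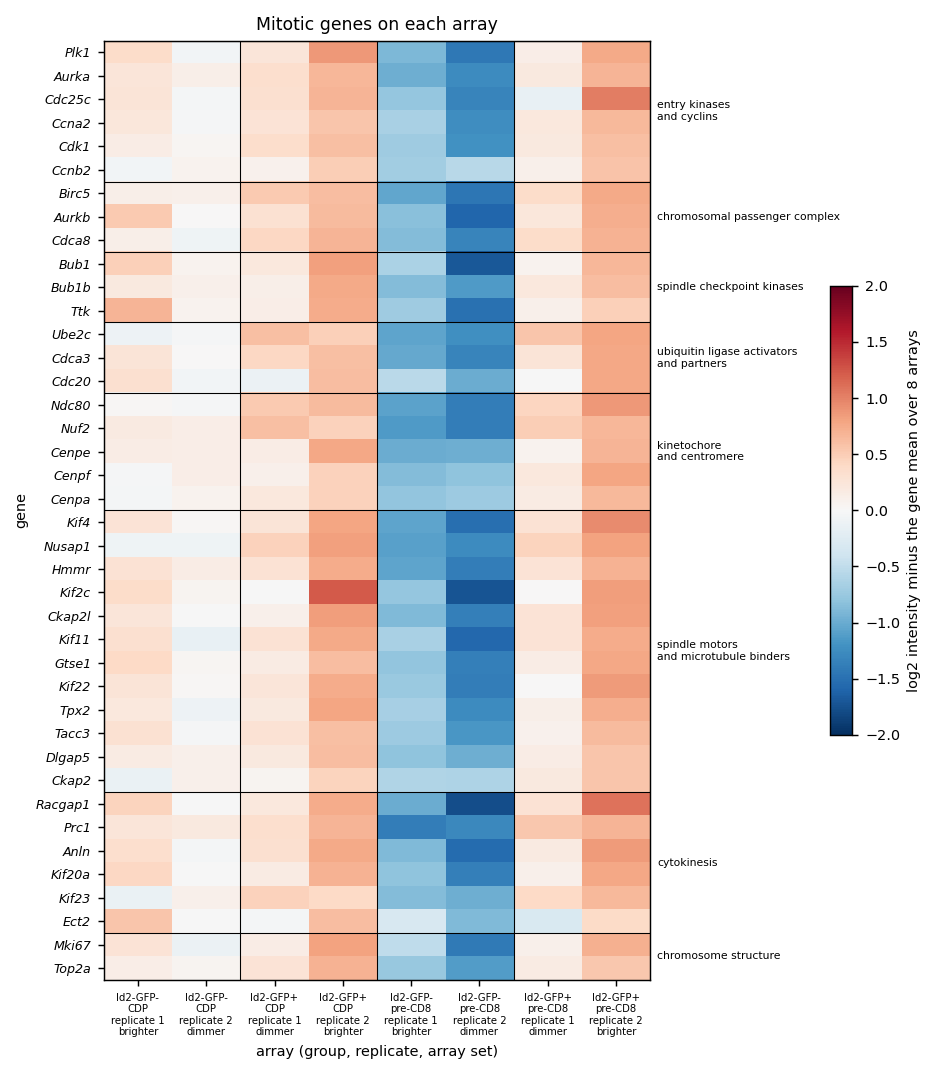
Log2 intensity of 40 mitotic genes (rows, by role) on the 8 arrays (columns, by group, replicate and array set), each minus the gene's mean over the 8 arrays; red is above the mean and blue below. Both GFP- pre-CD8 columns are blue in all 40 rows, with column medians of -0.82 and -1.32.

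Within each population 1 array was brighter than the other. Mean linear intensity was 461 to 478 on 4 arrays (the brighter set) and 402 to 414 on the other 4 (the dimmer set), and each set held 1 array per group. The mitotic genes followed this split: the median brighter-minus-dimmer difference of the 40 genes was 0.24 in GFP- CDP, 0.41 in GFP+ CDP, 0.45 in GFP- pre-CD8 and 0.49 in GFP+ pre-CD8, against 0.12 to 0.14 for all genes. In GFP+ pre-CD8, all 40 were higher on the brighter array, in a population where 66.0% of all genes were. The dimmer arrays also had a narrower spread, with a quartile distance of 3.15 to 3.41 in log2 against 3.65 to 3.73. The mitotic genes were not compared with genes of like brightness, so this shift cannot be called particular to them. Because of the split, medians of the mitotic genes are also given within each set. Counts are also given from a fit that takes the set as a block, called the blocked fit below. The sets were drawn from these same intensities and no label names a batch, so p-values of the blocked fit can be too small. Between the pre-CD8 groups it called 24.2% of all genes, against 6.26% without the block. Whether replicates are separate animals is not in the labels, and the p-values then reflect only how far these arrays vary, possibly for technical reasons. Id2 itself checked the sort. Its log2 intensity was 5.14 and 6.30 in GFP- CDP and 5.90 and 7.18 in GFP- pre-CD8, against 9.77 and 9.26 in GFP+ CDP and 10.69 and 11.00 in GFP+ pre-CD8.

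The promoters of the mitotic genes were examined because these genes moved together. Many mitotic promoters are known to carry CCAAT boxes, bound by the NF-Y factor, upstream of a cell cycle homology region, an element bound by MuvB complexes that hold the gene silent in resting cells and, with B-Myb and FoxM1, active in G2 and M. RefSeq promoter sequences (GRCm38.p6, 250 bases before to 50 bases after the annotated start) were held for 35 of the 41 genes. Those of Ccna2, Cdc25c, Aurkb, Tpx2, Dlgap5 and Kif20a were not among them. The 7 windows printed here run from 130 bases before the start to 30 bases after it, 5′ to 3′ on the gene's strand. Capitals mark CCAAT or its reverse complement ATTGG, and the hexamer TTTGAA of the homology region or its reverse complement TTCAAA. Cdk1, Ccnb2, Ube2c, Kif11 and Prc1 show the paired arrangement in genes of different roles, Racgap1 is the gene with the largest difference between the pre-CD8 groups, and Birc5 has neither motif.
The windows are Cdk1 at chr10:69352883-69353042 on the minus strand, Ccnb2 at chr9:70421525-70421684 on the minus strand, Ube2c at chr2:164769799-164769958 on the plus strand, Kif11 at chr19:37376252-37376411 on the plus strand, Prc1 at chr7:80294321-80294480 on the plus strand, Racgap1 at chr15:99651627-99651786 on the minus strand and Birc5 at chr11:117849107-117849266 on the plus strand.
Cdk1: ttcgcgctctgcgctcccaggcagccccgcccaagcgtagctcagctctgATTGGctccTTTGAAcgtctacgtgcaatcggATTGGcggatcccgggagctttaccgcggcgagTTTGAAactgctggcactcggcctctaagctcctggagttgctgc
Ccnb2: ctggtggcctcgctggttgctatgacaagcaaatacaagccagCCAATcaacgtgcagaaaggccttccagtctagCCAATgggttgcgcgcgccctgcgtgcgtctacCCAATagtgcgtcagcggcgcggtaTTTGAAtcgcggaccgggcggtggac
Ube2c: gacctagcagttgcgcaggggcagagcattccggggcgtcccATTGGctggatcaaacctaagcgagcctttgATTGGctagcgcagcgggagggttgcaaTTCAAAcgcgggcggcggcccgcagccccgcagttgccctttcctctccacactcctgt
Kif11: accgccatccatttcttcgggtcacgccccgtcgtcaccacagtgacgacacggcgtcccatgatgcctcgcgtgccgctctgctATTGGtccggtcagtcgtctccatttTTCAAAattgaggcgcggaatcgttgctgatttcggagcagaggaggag
Prc1: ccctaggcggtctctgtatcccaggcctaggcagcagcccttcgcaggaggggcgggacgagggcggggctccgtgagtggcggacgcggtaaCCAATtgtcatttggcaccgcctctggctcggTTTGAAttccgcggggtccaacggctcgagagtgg
Racgap1: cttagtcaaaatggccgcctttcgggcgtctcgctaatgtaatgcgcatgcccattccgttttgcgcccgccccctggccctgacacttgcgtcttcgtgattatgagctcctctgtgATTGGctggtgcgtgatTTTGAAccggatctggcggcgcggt
Birc5: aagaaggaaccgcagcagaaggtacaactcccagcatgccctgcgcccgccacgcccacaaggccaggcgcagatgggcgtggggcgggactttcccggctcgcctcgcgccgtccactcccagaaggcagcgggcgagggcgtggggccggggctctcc

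TTTGAA, on either strand, was found in 27 of the 35 promoters (77.1%), against 15.2% of the 15614 promoters of genes tested on the array. CCAAT, on either strand, was found in 28 (80.0%), against 38.2%, and at least 2 copies of it in 20 (57.1%), against 13%. A CCAAT box whose first base lay 20 to 45 bases before that of TTTGAA was present in 16 promoters (45.7%), against 0.871% of array genes; this window was chosen after the sequences had been seen. In 53 promoters of further mitotic genes, listed below, TTTGAA was found in 29 (54.7%) and the pair in 7 (13.2%). The median distance was 33 bases, the distance in Cdk1, and in Kif11 it was 26 bases. In Racgap1 the pair was closer, with CCAAT beginning 12 bases before the start and TTTGAA at base 6 after it. Nuf2, Nusap1, Tacc3 and Birc5 had neither motif in this window.

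The heptamer GCGGGAA, a form of the site bound by E2F factors, gave a different picture. It was found in 0 of the 35 mitotic promoters and in 6.5% of those of array genes, whereas 15 of 33 promoters of S phase genes (45.5%) held it. A share of 6.5% would give only a few of 35 promoters, so 0 was not far below that of array genes. Among the 53 further mitotic promoters 7 held it (13.2%), so it was not absent from mitotic genes in general. TTTGAA was found in 4 of the 33 S phase promoters (12.1%). Matches of CCAAT and TTTGAA on opposite strands can overlap by a single base, as 1 pair in the mitotic promoters did, in Cdca8. A match is a description of the sequence, not evidence of binding. Having the hexamer went with no visible difference in size: the median GFP+ minus GFP- difference in pre-CD8 cells was 1.55 for the 27 genes with TTTGAA and 1.54 for the 7 measured genes without it.

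**Figure D2:**
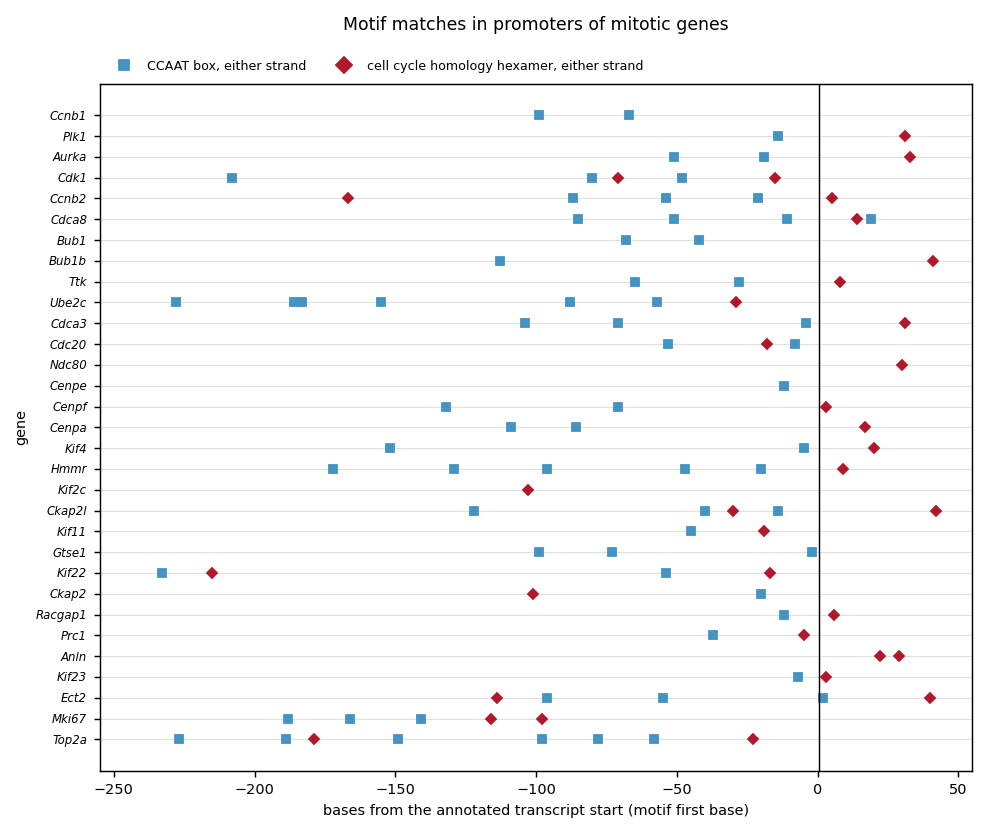
Positions of CCAAT (blue squares) and TTTGAA (red diamonds), either strand, in bases from the annotated start, for the 31 mitotic genes with at least 1 match out of 35 with a promoter sequence. In 16 genes a CCAAT box begins 20 to 45 bases before the hexamer.

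The first comparison was between reporter-positive and reporter-negative pre-CD8 cells. By limma, with Benjamini-Hochberg adjustment over all genes and a threshold of 0.05, 33 of the 40 mitotic genes rose in GFP+ pre-CD8 and 0 fell, where 3.57% of all genes rose. All 40 differences were positive, from 0.65 to 2.07, with a median of 1.53 on the log2 scale against -0.01 for all genes. The median was 1.58 within the brighter set and 1.52 within the dimmer set. With the array set as a block all 40 rose, where 11% of all genes did. The 7 that did not pass without the block were Bub1, Cdc20, Cdc25c, Ect2, Kif2c, Mki67 and Ttk. Their differences, apart from 0.65 in Ect2, were 1.14 to 1.68, with standard errors of 0.35 to 0.48, while the 33 had errors of 0.17 to 0.36. The count rested on 2 arrays: without GFP- pre-CD8 replicate 2, 10 genes passed, and without GFP+ pre-CD8 replicate 2, 8 passed. Birc5, Ube2c, Cdca3, Nuf2, Ndc80, Nusap1, Kif23 and Prc1 passed whichever of the 8 arrays was left out. The other 25 lost the call at least without GFP+ pre-CD8 replicate 2.

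Markers of several marrow cell types, those of the dendritic lineage included, differed between the same groups. Of 12 B lineage markers 7 fell in GFP+ pre-CD8 (2.7% of all genes fell), and those with the smallest p were the recombinase gene Rag2 at -3.09 and the interleukin 7 receptor gene Il7r at -3.91. The log2 of their summed linear intensity was 12.82 to 13.17 in GFP- pre-CD8, 10.03 to 10.21 in GFP+ pre-CD8, 10.39 to 10.51 in GFP- CDP and 9.80 to 10.21 in GFP+ CDP. Such a sum, here and for the lists below, is weighted towards the brightest markers of its list. Of 13 neutrophil and granule markers 9 rose and 1 fell, where 3.57% of all genes rose. Their summed level was 13.71 to 14.08 in GFP- pre-CD8, 15.37 to 15.57 in GFP+ pre-CD8, 14.14 to 14.90 in GFP- CDP and 15.89 to 16.50 in GFP+ CDP. Monocyte and macrophage markers rose in 4 of 9 cases, with a summed level of 11.19 to 11.28 in GFP- pre-CD8 and 13.10 to 13.70 over the other 3 groups. Of 8 cDC1 markers 6 rose, with a summed level of 12.21 to 12.29 in GFP- pre-CD8, 13.53 to 13.95 in GFP+ pre-CD8, 12.19 to 12.29 in GFP- CDP and 13.05 to 13.15 in GFP+ CDP. Of 7 plasmacytoid dendritic cell markers 2 fell, with a summed level of 12.43 to 12.84 in GFP- pre-CD8, 12.08 to 12.36 in GFP+ pre-CD8, 12.51 to 12.80 in GFP- CDP and 11.96 to 12.35 in GFP+ CDP. Of 9 T and NK markers 2 rose while the summed level was 9.93 to 10.13 in GFP- pre-CD8 and 9.37 to 9.60 in GFP+ pre-CD8. Only Nkg7 was lower in GFP+ pre-CD8, at 9.47 and 9.72 in GFP- pre-CD8 and 8.68 and 8.14 in GFP+ pre-CD8. The other 8 differences were positive. Of 9 erythroid and megakaryocyte markers none passed by limma and 1 had an unadjusted p under 0.05, with a summed level of 9.07 to 9.57 in GFP- pre-CD8 and 8.81 to 8.98 in GFP+ pre-CD8. Car2 differed most, at 8.35 and 6.63 in GFP- pre-CD8 and 5.42 and 6.39 in GFP+ pre-CD8. Over the list 3 differences were positive and 6 negative, with a median of -0.08. The 6 dendritic progenitor markers, Flt3, Csf1r, Irf8, Kit, Cd34 and Cx3cr1, had a summed level of 13.72 to 14.15 over all groups, while its genes differed in opposite directions. Cx3cr1 and Irf8 rose in GFP+ pre-CD8 by 1.09 and 1.14, and Cd34, Flt3 and Csf1r fell, with differences of -1.85, -1.11 and -1.09. All 5 calls were lost without GFP- pre-CD8 replicate 1 or GFP+ pre-CD8 replicate 2. Array intensities have a floor above 0, so no marker read 0. Whether any of these cell types had a part in the mitotic difference was not tested.

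Among the genes of mitotic entry, 5 of the 6 measured rose in GFP+ pre-CD8, with a median of 1.42. Values on single arrays are log2 intensities, replicate 1 before replicate 2. Cdk1, the kinase that drives entry, was measured at 10.85 and 10.74 in GFP- CDP and 11.05 and 11.30 in GFP+ CDP, and at 9.99 and 9.49 in GFP- pre-CD8 and 10.90 and 11.31 in GFP+ pre-CD8. Both GFP- pre-CD8 arrays were lowest and the other 6 lay within 0.57 of each other. The difference between the pre-CD8 groups was 1.36 ± 0.23 (SE), a 2.57-fold higher level (limma adjusted p = 0.0114), with 1.32 in the brighter set and 1.41 in the dimmer set. Plk1, the Polo kinase that matures centrosomes and activates Cdk1, read 11.10 and 10.68 in GFP- CDP, 10.98 and 11.60 in GFP+ CDP, 9.83 and 9.31 in GFP- pre-CD8 and 10.86 and 11.50 in GFP+ pre-CD8. It gave the class's largest difference, 1.61 ± 0.32 (adjusted p = 0.0205 by limma), although the 2 arrays of a group were 0.42 to 0.63 apart. Ccnb2, a cyclin partner of Cdk1, was measured at 10.47 and 10.60 in GFP- CDP and 10.61 and 11.02 in GFP+ CDP, and at 9.83 and 9.99 in GFP- pre-CD8 and 10.64 and 11.10 in GFP+ pre-CD8. Here the gap was the smallest of the class, 0.96 ± 0.23 (adjusted p = 0.0443), with 1.27 within the brighter set and 0.65 within the dimmer set. Aurka, which acts at centrosomes, rose by 1.55 (SE 0.24) and Ccna2, the cyclin of S phase and G2, by 1.37 (SE 0.25). The phosphatase gene Cdc25c, which frees Cdk1 of its inhibitory phosphates, differed by 1.48 ± 0.38 without passing (adjusted p = 0.0634).

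All 3 genes of the chromosomal passenger complex, which corrects faulty attachments and later marks the cleavage plane, rose. Birc5 (survivin) read 10.85 and 10.85 in GFP- CDP, 11.27 and 11.35 in GFP+ CDP, 9.69 and 9.30 in GFP- pre-CD8 and 11.11 and 11.50 in GFP+ pre-CD8. Its 2 arrays per group lay within 0.40 of each other in every population, and the pre-CD8 difference was 1.81 ± 0.21, or 3.51-fold (limma adjusted p = 0.00222). Cdca8 (borealin) was measured at 9.78 and 9.57 in GFP- CDP and 10.08 and 10.35 in GFP+ CDP, and at 8.79 and 8.35 in GFP- pre-CD8 and 10.03 and 10.36 in GFP+ pre-CD8. The difference was 1.62 ± 0.24 (adjusted p = 0.00561), and the call was lost without GFP+ pre-CD8 replicate 2. Aurkb, the kinase of the complex, differed by 1.69 ± 0.31 (adjusted p = 0.0154).

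Of the 3 spindle checkpoint kinases 1 rose, and all 3 did in the blocked fit. Bub1, a kinase at unattached kinetochores, read 9.93 and 9.52 in GFP- CDP, 9.67 and 10.27 in GFP+ CDP, 8.81 and 7.76 in GFP- pre-CD8 and 9.53 and 10.12 in GFP+ pre-CD8. Replicate 2 of GFP- pre-CD8 lay 1.06 below replicate 1, the widest gap of any mitotic gene in that population. The pre-CD8 difference of 1.53 ± 0.39 did not pass (limma adjusted p = 0.061). Ttk (Mps1), which starts the checkpoint signal, was measured at 9.48 and 8.88 in GFP- CDP and 8.94 and 9.55 in GFP+ CDP, and at 8.10 and 7.31 in GFP- pre-CD8 and 8.90 and 9.28 in GFP+ pre-CD8. The difference of 1.38 ± 0.35 did not pass (adjusted p = 0.0597). Its pre-CD8 groups did not overlap, as in all 40 mitotic genes and in this direction in 19% of all genes. Bub1b (BubR1), part of the inhibitor of the anaphase-promoting complex, passed at 1.42 ± 0.27 (adjusted p = 0.0175).

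Of the genes that act with ubiquitin ligases in mitosis, 2 of 3 rose. Ube2c, the conjugating enzyme of the anaphase-promoting complex, read 8.38 and 8.47 in GFP- CDP, 9.09 and 8.96 in GFP+ CDP, 7.44 and 7.26 in GFP- pre-CD8 and 9.05 and 9.28 in GFP+ pre-CD8. Its values were lowest in GFP- pre-CD8, intermediate in GFP- CDP and highest in both reporter-positive groups, whose arrays overlapped. The steps from GFP- CDP up to the reporter-positive groups did not pass by limma without the block. The pre-CD8 difference was 1.82 ± 0.20, 3.52-fold (limma adjusted p = 0.00193). Cdc20, the activator of the complex and the target of the checkpoint, was measured at 10.10 and 9.71 in GFP- CDP and 9.65 and 10.38 in GFP+ CDP, and at 9.23 and 8.78 in GFP- pre-CD8 and 9.76 and 10.54 in GFP+ pre-CD8. Replicates were up to 0.78 apart, and the pre-CD8 difference of 1.14 ± 0.35 did not pass (adjusted p = 0.114). Cdca3, a trigger of mitotic entry that recruits a ligase to Wee1, rose by 1.69 (SE 0.23, adjusted p = 0.00466).

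All 5 kinetochore and centromere genes rose. Nuf2, a subunit of the NDC80 complex that grips microtubules, read 9.02 and 8.97 in GFP- CDP, 9.44 and 9.31 in GFP+ CDP, 7.71 and 7.46 in GFP- pre-CD8 and 9.34 and 9.52 in GFP+ pre-CD8. Its 2 arrays lay within 0.25 of each other in each population, and the difference was 1.84 ± 0.20, 3.58-fold (limma adjusted p = 0.00182). Ndc80, its partner subunit, was measured at 9.14 and 9.09 in GFP- CDP and 9.64 and 9.74 in GFP+ CDP, and at 8.04 and 7.73 in GFP- pre-CD8 and 9.55 and 9.98 in GFP+ pre-CD8. The pre-CD8 difference was 1.88 ± 0.22 (adjusted p = 0.00247), the largest of the class. Cenpa, the histone that marks the centromere, read 10.68 and 10.79 in GFP- CDP, 10.92 and 11.18 in GFP+ CDP, 9.93 and 9.98 in GFP- pre-CD8 and 10.87 and 11.36 in GFP+ pre-CD8. Its difference of 1.16 ± 0.21 was the smallest of the class (adjusted p = 0.0143), with 1.43 in the brighter set and 0.89 in the dimmer set. The kinesin gene Cenpe differed by 1.36 ± 0.28 (adjusted p = 0.0253) and Cenpf by 1.34 ± 0.25 (adjusted p = 0.0166).

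Among 12 genes of spindle motors and microtubule binders 11 rose, with a median of 1.58. Kif4, a chromokinesin that condenses chromosomes and shapes the midzone, was measured at 8.98 and 8.72 in GFP- CDP and 8.95 and 9.48 in GFP+ CDP, and at 7.63 and 7.18 in GFP- pre-CD8 and 8.99 and 9.64 in GFP+ pre-CD8. The difference was 1.91 ± 0.30, 3.75-fold (limma adjusted p = 0.00854), the largest of the class. Ckap2, a microtubule-nucleating protein of the spindle, read 7.80 and 8.03 in GFP- CDP, 7.99 and 8.38 in GFP+ CDP, 7.33 and 7.32 in GFP- pre-CD8 and 8.14 and 8.49 in GFP+ pre-CD8. It had the smallest difference, 0.99 ± 0.23 (adjusted p = 0.0405), although its GFP- pre-CD8 arrays nearly coincided. Nusap1, which bundles spindle microtubules, rose by 1.80 (SE 0.21), and the hyaluronan receptor and spindle gene Hmmr by 1.69 (SE 0.25). Kif11, the motor that pushes spindle poles apart, rose by 1.61 (SE 0.34), the spindle assembly factor Tpx2 by 1.38 (SE 0.32) and Tacc3 by 1.30 (SE 0.26). Ckap2l, Gtse1, Kif22 and Dlgap5 rose by 1.67, 1.54, 1.49 and 1.24. The depolymerase gene Kif2c differed by 1.68 ± 0.48, the least precise value of all mitotic genes, and did not pass (adjusted p = 0.0902).

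Of the 6 cytokinesis genes 5 rose, and the class held both extremes. Racgap1, a subunit of the centralspindlin complex that sets the cleavage site, was measured at 10.87 and 10.42 in GFP- CDP and 10.63 and 11.17 in GFP+ CDP, and at 9.44 and 8.66 in GFP- pre-CD8 and 10.72 and 11.51 in GFP+ pre-CD8. Its difference was the largest of all mitotic genes, 2.07 ± 0.36, 4.19-fold (limma adjusted p = 0.0127), and was nearly equal within the brighter set (2.07) and the dimmer set (2.06). Ect2, the exchange factor that activates RhoA at that site, read 10.29 and 9.72 in GFP- CDP, 9.68 and 10.34 in GFP+ CDP, 9.40 and 8.84 in GFP- pre-CD8 and 9.43 and 10.12 in GFP+ pre-CD8. The highest GFP- pre-CD8 array and the lowest GFP+ pre-CD8 array were 0.03 apart, and the difference of 0.65 ± 0.35 was the smallest of all (adjusted p = 0.473). Prc1, which bundles antiparallel microtubules of the midzone, was measured at 8.16 and 8.10 in GFP- CDP and 8.26 and 8.59 in GFP+ CDP, and at 6.54 and 6.62 in GFP- pre-CD8 and 8.45 and 8.60 in GFP+ pre-CD8. It had the smallest adjusted p of the 40 genes, 0.00152 by limma, for a difference of 1.95 ± 0.20. Kif23, the kinesin of centralspindlin, rose by 1.44 (SE 0.17), the ring scaffold Anln by 1.72 (SE 0.33) and the kinesin Kif20a by 1.53 (SE 0.33).

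For chromosome structure, Top2a rose and Mki67 did not pass. Top2a, the topoisomerase that untangles sister chromatids, read 11.10 and 11.03 in GFP- CDP, 11.25 and 11.66 in GFP+ CDP, 10.22 and 9.86 in GFP- pre-CD8 and 11.13 and 11.51 in GFP+ pre-CD8. The difference was 1.29 ± 0.22 (limma adjusted p = 0.0123), and a second, dimmer probe set of the gene gave 1.18. Mki67, the source of the Ki-67 proliferation antigen, was measured at 12.14 and 11.75 in GFP- CDP and 12.02 and 12.67 in GFP+ CDP, and at 11.37 and 10.45 in GFP- pre-CD8 and 11.97 and 12.59 in GFP+ pre-CD8. Replicates differed by up to 0.92, and the pre-CD8 difference of 1.37 ± 0.36 did not pass (adjusted p = 0.0652).

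**Figure D3:**
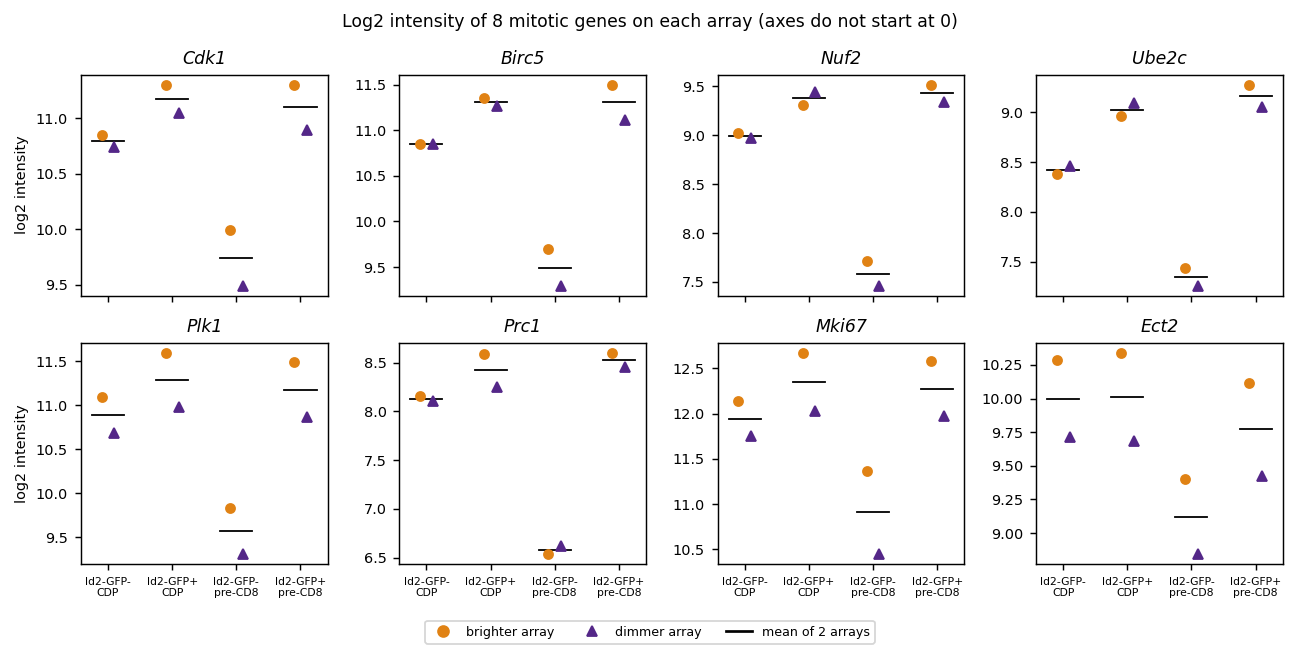
Log2 intensity of 8 mitotic genes on each array by group; orange circles are brighter-set arrays, purple triangles dimmer-set arrays and black bars group means of 2 arrays, and the axes do not start at 0. Both GFP- pre-CD8 arrays are the lowest 2 in each panel, and Ect2 shows the smallest gap to GFP+ pre-CD8 (0.65).

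The reporter comparison was repeated one stage earlier, in CDP. None of the 40 mitotic genes passed by limma, where 0.597% of all genes rose; 5 of the 40 had an unadjusted p under 0.05. All 40 differences were positive with a median of 0.34; it was 0.47 in the brighter set and 0.22 in the dimmer set, where 35 of the 40 were positive. The size depended on single arrays: the median was 0.10 without GFP+ CDP replicate 2 and 0.51 without GFP+ CDP replicate 1. Both GFP+ CDP arrays lay above both GFP- CDP arrays for 18 of 40 genes, against 13% of all genes. The smallest adjusted p was that of Nusap1, 0.41, with a difference of 0.72 ± 0.21, followed by Ube2c with a difference of 0.60 ± 0.20. With the array set as a block 12 of 40 rose, where 3.69% of all genes did: Cdk1, Plk1, Birc5, Cdca8, Ube2c, Ndc80, Tpx2, Kif11, Nusap1, Kif23, Top2a and Mki67. The 95% intervals of 24 of the 40 differences lay within 1 log2 unit of 0, and the highest bound was 1.49.

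Whether the reporter difference itself changed between the stages was tested as an interaction. It was positive for all 40 genes, with a median of 1.15 (1.08 within the brighter set and 1.21 within the dimmer set), so the point estimates were larger in pre-CD8. None of the 40 passed by limma, where 0.0351% of all genes were higher, although 32 had an unadjusted p under 0.05. The smallest adjusted p was 0.0934, for Prc1 at 1.66 ± 0.28. With the array set as a block 38 of 40 passed, where 4.09% of all genes did, and the exceptions were Ccnb2 at 0.68 (adjusted p = 0.0903) and Ckap2 at 0.73 (adjusted p = 0.0949).

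Stage was then compared within each reporter class. Among reporter-negative cells all 40 genes were lower in pre-CD8 than in CDP, with a median of -1.17, and 10 of 40 fell, where 0.592% of all genes fell. These were Aurka, Birc5, Cdca3, Ube2c, Nuf2, Ndc80, Hmmr, Nusap1, Prc1 and Kif23. Prc1 had the largest of these differences, -1.55 ± 0.20 (limma adjusted p = 0.00971), followed by Hmmr with -1.44 ± 0.25. Racgap1, at -1.60 ± 0.36, was further from 0 than either and did not pass (adjusted p = 0.0878). With the array set as a block all 40 fell, where 6.65% of all genes did, and the median was -1.05 in the brighter set and -1.32 in the dimmer set. The count of 10 was not stable: it was 0 without either GFP- CDP array or without GFP- pre-CD8 replicate 2, 1 without GFP- pre-CD8 replicate 1, and 6 without any single array of the reporter-positive groups.

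Among reporter-positive cells the mitotic genes showed no such step. The 40 differences between GFP+ pre-CD8 and GFP+ CDP had a median of -0.02, and 18 were positive. The median was 0.06 within the brighter set and -0.06 within the dimmer set, and ran from -0.25 without GFP+ pre-CD8 replicate 2 to 0.23 without GFP+ pre-CD8 replicate 1. The differences ran from -0.24 ± 0.35 in Ect2 to 0.22 ± 0.25 in Cenpf. None passed, with or without the array set as a block, and none had an unadjusted p under 0.05. No gene on the array passed by limma without the block (0.0%), 643 had an unadjusted p under 0.05, and 2.08% of all genes passed with the block. For 36 of 40 genes the 95% interval lay within 1 log2 unit of 0; the exceptions were Bub1, Kif2c, Ect2 and Racgap1, whose bounds reached -1.28 and 1.04. For none of the 40 did both arrays of 1 group lie above both of the other, against 8.94% of all genes higher and 10.3% lower in pre-CD8. Each group held 1 brighter and 1 dimmer array, with median member gaps of 0.41 in GFP+ CDP and 0.49 in GFP+ pre-CD8. These medians exceeded every difference between the groups, so overlap was likely and this count says little.

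The remaining pairs crossed stage and reporter. They share groups with the comparisons above and so are not independent of them. Between GFP- pre-CD8 and GFP+ CDP, 32 of 40 genes fell (2.81% of all genes), with a median of -1.55 (-1.48 in the brighter set and -1.60 in the dimmer set). All 40 fell in the blocked fit, where 9.88% of all genes did. Racgap1 had the largest difference among those that passed, -1.85 ± 0.36, followed by Prc1 at -1.84 ± 0.20. Bub1, Ccnb2, Cdc20, Cdc25c, Ckap2, Ect2, Kif2c and Mki67 did not pass without the block, with differences from -1.86 in Kif2c to -0.86 in Ckap2. The count was 8 without GFP- pre-CD8 replicate 2, 11 without GFP+ CDP replicate 2 and 21 without GFP+ CDP replicate 1. Between GFP+ pre-CD8 and GFP- CDP none passed (1.39% of all genes rose; 4 of 40 had an unadjusted p under 0.05), 38 differences were positive and the median was 0.33. It was 0.48 in the brighter set and 0.14 in the dimmer set, 0.06 without GFP+ pre-CD8 replicate 2 and 0.61 without GFP+ pre-CD8 replicate 1. With the block 15 rose there, where 6.97% of all genes did, with the largest difference in Ube2c at 0.74. The 2 genes with a negative difference were Ect2 and Ttk.

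**Figure D4:**
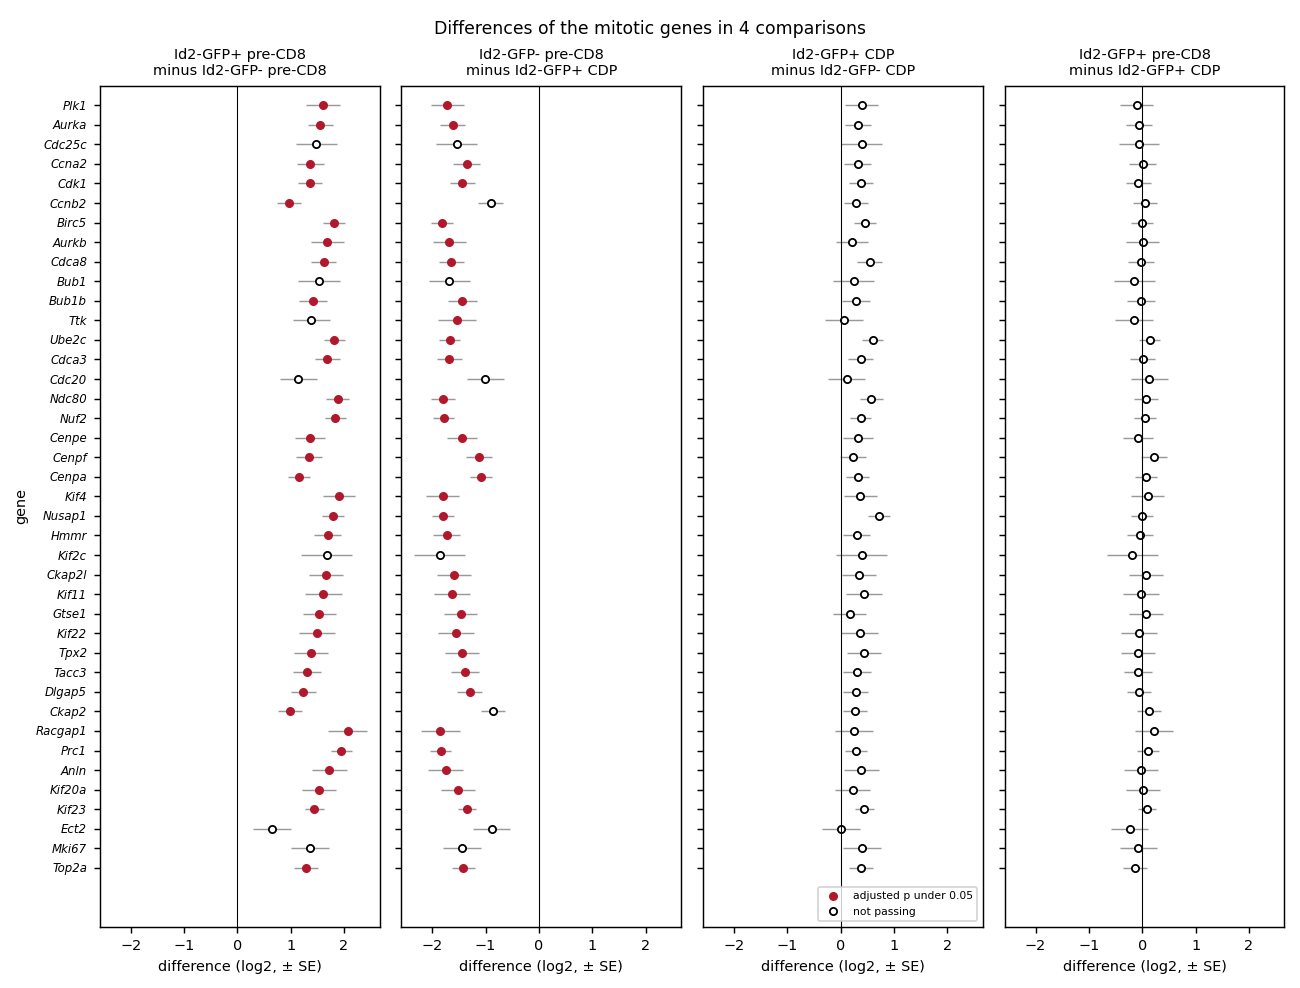
Log2 difference ± SE (limma) of 40 mitotic genes in 4 comparisons of groups of 2 arrays; filled points have an adjusted p under 0.05 over all genes. Filled points number 33 and 32 in the left pair of panels, which both involve GFP- pre-CD8, and 0 in the right pair.

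Other genes of the cell cycle were set beside the members. Of 61 further mitotic genes, 40 rose in GFP+ over GFP- pre-CD8 and 0 fell, with a median of 1.39, where 3.57% of all genes rose. In the blocked fit it was 58 that rose, where 11% of all genes did. The kinetochore gene Spc25 rose by 1.70, Depdc1a by 2.16, the kinase gene Melk by 2.09 and Mastl, which restrains the phosphatase that reverses Cdk1's marks, by 1.61. Both GFP- pre-CD8 arrays lay below all others for 58 of the 61, and the exceptions were Ncapd3, Zwilch and Zwint. Zwint, a kinetochore gene, differed by -0.26 ± 0.22, in the opposite direction to the rest, and did not pass. Its pre-CD8 groups did not overlap, as in 21.5% of all genes in that direction.

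Among 23 transcription regulators of the cell cycle 4 rose, where 3.57% of all genes did, with a list median of 0.17. The blocked fit called 9 higher and 1 lower, against 11% and 13.2% of all genes. The 4 were the E2F genes E2f8 at 1.83, E2f7 at 1.68 and E2f2 at 1.47, and Foxm1, the forkhead activator of mitotic genes, at 1.65 ± 0.36 (limma adjusted p = 0.0313). Foxm1 read 10.90 and 10.42 in GFP- CDP, 10.87 and 11.33 in GFP+ CDP, 9.84 and 9.02 in GFP- pre-CD8 and 10.70 and 11.45 in GFP+ pre-CD8. It was lowest on both GFP- pre-CD8 arrays. The calls of E2f7, E2f2 and Foxm1 were lost without GFP- pre-CD8 replicate 2 or GFP+ pre-CD8 replicate 2. Mybl2 (B-Myb), the other activator, was measured at 9.69 and 8.93 in GFP- CDP and 8.65 and 9.67 in GFP+ CDP, and at 8.72 and 7.79 in GFP- pre-CD8 and 8.61 and 9.39 in GFP+ pre-CD8. Its pre-CD8 groups overlapped across the array sets, and the difference was 0.74 ± 0.47 (adjusted p = 0.589). It was 0.67 within the brighter set and 0.82 within the dimmer set, and passed in the blocked fit (limma adjusted p = 0.000748).

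The subunits of the anaphase-promoting complex, listed with its co-activator Fzr1 and the conjugating enzyme Ube2s, had a median difference of -0.06 over 16 genes. Of these 1 rose by limma, where 3.57% of all genes did. The 1 gene that rose was not a subunit: Ube2s, which extends ubiquitin chains, at 1.04 ± 0.23 (limma adjusted p = 0.0324), whose call was lost without any 1 of 6 arrays, the exceptions being those of GFP+ CDP. The subunit genes Anapc15 and Anapc11, and Fzr1, differed by 0.89, 0.83 and 0.88 without passing. The blocked fit called 5 of the 16 higher, these 3 among them, and 2 lower, against 11% and 13.2% of all genes.

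Of 41 S phase genes 2 rose, the ribonucleotide reductase gene Rrm2 at 1.45 and the cyclin gene Ccne1 at 1.24, with a list median of 0.24; the share of all genes that rose was 3.57%. The median was 0.08 in the brighter set and 0.41 in the dimmer set. The blocked fit called 14 higher and 3 lower, against 11% and 13.2% of all genes. Gins3 and Ccne2 differed by 0.85 and 0.95 and passed in the blocked fit alone. Rrm2 and Ccne1 both lost the call without GFP- pre-CD8 replicate 2 or either GFP+ pre-CD8 array, and Ccne1 also without either GFP- CDP array. Both GFP+ pre-CD8 arrays lay above both GFP- pre-CD8 arrays for 13 of the 41 and below them for 6, the replication genes Mcm2, Mcm3, Mcm4, Mcm6, Cdt1 and Chaf1b, against 19.0% and 21.5% of all genes. S phase genes were lower than in GFP- CDP in both pre-CD8 groups, with medians of -0.63 in GFP- pre-CD8 and -0.40 in GFP+ pre-CD8 and no gene passing in either by limma, where 0.592% and 0.401% of all genes fell (20 and 9 of 41 had an unadjusted p under 0.05). In the blocked fit 35 and 20 of the 41 fell, against 6.65% and 8.85% of all genes. GFP+ CDP was also below GFP- CDP, with a median of -0.24 and 30 of 41 differences negative. None passed there by limma, and 10 of 41 fell in the blocked fit, against 4.17% of all genes. Between GFP- pre-CD8 and GFP+ CDP 6 of 41 fell by limma, where 2.81% of all genes did. For the mitotic genes the medians against GFP- CDP were -1.17 in GFP- pre-CD8, 0.33 in GFP+ pre-CD8 and 0.34 in GFP+ CDP.

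Of 12 genes of Cdk inhibition and quiescence, 2 rose and 2 fell, where 3.57% and 2.7% of all genes did. The blocked fit called 6 higher and 3 lower, against 11% and 13.2% of all genes. Cdkn2c (p18), an inhibitor of Cdk4 and Cdk6, read 8.01 and 8.41 in GFP- CDP, 9.0 and 9.14 in GFP+ CDP, 6.81 and 6.68 in GFP- pre-CD8 and 8.86 and 9.17 in GFP+ pre-CD8. It rose with the mitotic genes, by 2.27 ± 0.22 (limma adjusted p = 0.00136). Cdkn2d (p19), of the same family, was measured at 9.04 and 9.35 in GFP- CDP and 10.02 and 10.37 in GFP+ CDP, and at 8.13 and 8.34 in GFP- pre-CD8 and 10.05 and 10.50 in GFP+ pre-CD8. It rose by 2.04 ± 0.24 (adjusted p = 0.00253). Sesn1 and Trp53inp1 fell, with differences of -1.62 and -1.42. Both lost the call without GFP- pre-CD8 replicate 2 or GFP+ pre-CD8 replicate 2, Sesn1 also without either replicate 1 of those groups. Btg2 went the other way without passing, at 8.64 and 8.46 in GFP- pre-CD8 and 9.19 and 10.20 in GFP+ pre-CD8. Over the list 9 of the 12 differences were positive, with a median of 0.435. Cdkn1b (p27) differed by 0.59 ± 0.16 (adjusted p = 0.0772) and passed in the blocked fit (adjusted p = 0.000957), and Cdkn1c, Cdkn2a and Cdkn2b differed by 0.15, 0.04 and 0.28. Cdkn1a had no probe set with its symbol alone and was not analysed here.

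**Figure D5:**
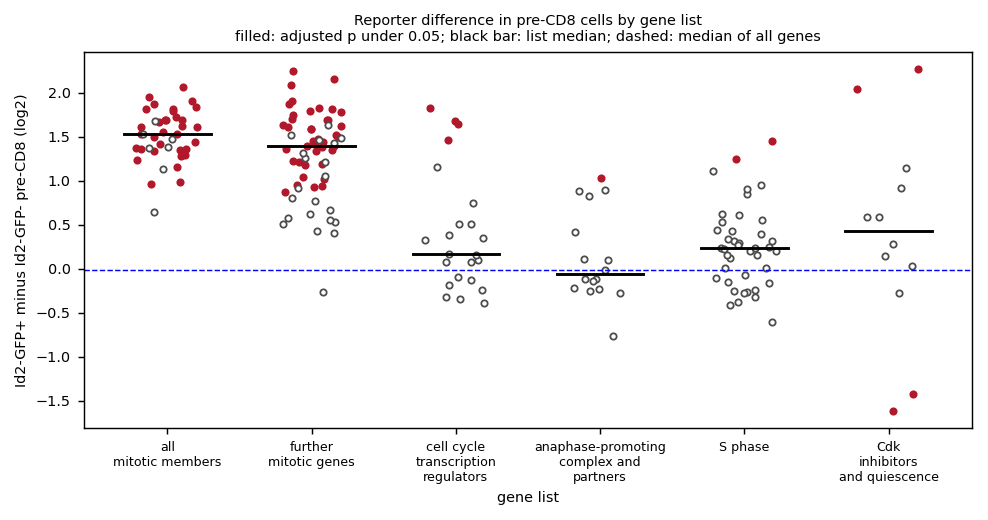
GFP+ minus GFP- difference in pre-CD8 cells (log2) of single genes by list; filled points have an adjusted p under 0.05, black bars are list medians and the dashed line is the median of all genes (-0.01). The medians are 1.53 for the 40 mitotic genes, 1.39 for the further mitotic genes and 0.24 for S phase genes.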

How the data were processed

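Total RNA of 8 sorted samples, 4 groups of 2, was hybridised to Affymetrix mouse gene arrays. The deposited intensity values are on a linear scale and were made by the authors with RMA in Affymetrix Expression Console, per the submitters' processing notes, with versions not given in the sources used here. RMA normalises across arrays that are processed together and compresses low values, which understates differences of dim genes. The deposited values did not share a distribution, however. The distance from the lower to the upper quartile of log2 values was 3.65 to 3.73 for brighter arrays. For dimmer arrays this distance was 3.15 to 3.41. Median log2 values overlapped, at 6.20 to 6.27 for the former and 6.12 to 6.23 for the latter. Whether all arrays were normalised together was not tested. The values were converted to log2 here without further normalisation. Of 28853 probe sets, 21789 carried 1 gene symbol, 1621 several and 5443 none in the platform annotation. The probe set with the highest mean was kept for each of 19938 genes, with no filter on dim genes.

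Groups were compared with limma 3.58.1 in R 4.3.3 (a mean per group, all 8 arrays, variance prior with an intensity trend, 4 residual degrees of freedom, two-sided, Benjamini-Hochberg adjustment over all genes). All 6 pairs of groups and 1 interaction were tested. Code was tested on simulated data. The members and gene lists were chosen with earlier results of these data known. Single-array values are given for the members of each role with the largest and smallest pre-CD8 reporter difference and for Cdk1, Birc5, Nuf2, Ube2c, Plk1 and Mki67; other lists are represented by up to 4 genes with the smallest p, Foxm1, Mybl2 and the Cdk inhibitors, and what is named outside this rule (such as Zwint, Hmmr, Flt3, single-array values of Prc1 and the S phase genes that separate the groups) was chosen after its values were seen. The array sets were defined by the largest gap in mean intensity. Promoter sequences are RefSeq's on GRCm38.p6, with the first listed start where there were several, as in 3 genes. The number of arrays limits the precision.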

Additional observations from a re-analysis of the deposited data

How the results depend on the processing

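The 40 member differences of the pre-CD8 reporter comparison and the 42 that passed in other comparisons were recomputed under 16 other settings. Of these 82 differences, 1312 values in all, 0 reversed. All 82 involve GFP- pre-CD8, whose arrays lay below the other 6 for all 40 genes, so leaving out 1 array could not reverse any. A block or another variance model does not change a difference either. Differences that did not pass could reverse when 1 array was left out: 11 of 40 members did in GFP+ against GFP- CDP, 13 in GFP+ pre-CD8 against GFP- CDP and 39 in GFP+ pre-CD8 against GFP+ CDP. Under the other 8 settings 1, 0 and 11 did. Of medians, 0 of 111 over the 40 genes moved by more than 0.34, the standard deviation between arrays of a group. Leaving out 1 array could hardly exceed that margin, so this count says little. Small medians did change, from 0.34 to 0.10 in GFP+ against GFP- CDP without GFP+ CDP replicate 2. In GFP+ pre-CD8 against GFP- CDP the change was from 0.33 to 0.06 without GFP+ pre-CD8 replicate 2. Counts of members past the threshold did change. With the array set as a block the counts were 12 (GFP+ over GFP- CDP), 40 (GFP- pre-CD8 under GFP- CDP), 15 (GFP+ pre-CD8 over GFP- CDP) and 38 (interaction), against 0, 10, 0 and 0. Quantile normalisation gave 1, 35, 2 and 11 in these 4 comparisons, and median centring gave 27 and 2 in the second and the interaction. A fit of the 2 groups alone gave 3 in the second comparison. Leaving out each array in turn gave 8 to 34 genes for the pre-CD8 reporter comparison, 0 to 6 for GFP- pre-CD8 against GFP- CDP and 8 to 32 for GFP- pre-CD8 against GFP+ CDP, and 0 in the other 4. With 1 array left in a group, its spread is taken to be that of the other groups.

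Replicate numbers did not pair the samples. Deviations of same-numbered samples from their group means correlated at 0.71 and 0.69 for 2 pairs of groups and at -0.69 to -0.63 for the other 4, whereas samples of the same array set correlated at 0.63 to 0.71 for all 6. With the replicate number as a block (the replicate block) 1 gene passed between GFP- pre-CD8 and GFP- CDP, 19 between GFP- pre-CD8 and GFP+ CDP, and 24 in the pre-CD8 reporter comparison. The cause of these changes was not tested. Signal over background was not used here, so differences of dim probe sets have no stated limit.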
